A study of Mus musculus with 219 samples.

Results

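Oxidative phosphorylation (OXPHOS) is carried out by 5 complexes of the inner mitochondrial membrane. Complex I (the Nduf genes) and complex II (Sdh) take electrons from NADH and succinate, complex III (Uqcr) passes them to cytochrome c, complex IV (Cox) passes them to oxygen, and complex V (Atp5) makes ATP from the proton gradient. The core of complexes I, III, IV and V is encoded in part by mitochondrial DNA, which is inherited from the oocyte, and the other subunits are nuclear genes whose proteins are imported. Mouse cleavage stages carry the mitochondria of the oocyte, and oxygen use is known to rise towards the blastocyst.

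Of the 32285 genes in the count table, 98 were taken by symbol as subunit genes of these complexes: the 13 protein-coding genes of mitochondrial DNA (7 of complex I, 1 of complex III, 3 of complex IV and 2 of complex V) and 85 nuclear genes (38, 4, 8, 18 and 17 of complexes I to V). The complex was read from the symbol, so that Ndufa4, whose product is now placed in complex IV, is counted with complex I. Of the 98, 97 are annotated as protein-coding, and Ndufb1-ps as a bidirectional promoter lncRNA. In the fits across all genes 80 of the 85 nuclear genes passed the filter on low counts. The 5 that did not were Cox4i2, Cox7b2, Cox8b, Cox8c and Ndufa4l2, of which Cox8b had 0 counts in every embryo used.

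Metaphase II oocytes of B6C3F1 females aged 6 to 8 weeks were injected with cryopreserved sperm heads of CD1 males at a chosen site. Beside the site, the embryos differ in stage and bisection, and the libraries in plate and read format, as given below. The site was opposite the meiotic spindle (contralateral ICSI, at the vegetal pole), next to it (ipsilateral ICSI, at the animal pole) or midway (equatorial ICSI). Single blastomeres were taken from 2-cell embryos bisected on the next day, and both sisters were sequenced from 55 embryos that passed the filter (21 contralateral, 21 ipsilateral and 13 equatorial). Twin blastocysts grew separately from the 2 blastomeres of a bisected embryo (19 pairs: 6 contralateral, 7 ipsilateral and 6 equatorial), and intact blastocysts grew from embryos that were not bisected (31: 11, 8 and 12). Counts of sisters or twins were added, so that the embryo was the replicate. CPM is a gene's count scaled to a total of 1000000 in that embryo, and TPM also divides by exonic length. Both are shares of the RNA sequenced, so more cells and more RNA per cell cannot be told apart, and the amount per embryo was not measured.

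Libraries held 360474 to 2100561 counts (median 1340425) for single blastomeres, 713410 to 2161062 (median 1093478) for single twins and 234099 to 1254428 (median 705837) for intact blastocysts. Of the 2-cell embryos, 42 were prepared on plate 1 and 13 on plate 2, and all blastocysts on plate 2. 0 pairs of libraries were identical. The summed level of 12 oocyte and 2-cell markers such as Gdf9, Bmp15 and Zp3 was 3537 to 5603 CPM in 2-cell embryos, 392 to 762 in twins and 0 to 406 in intact blastocysts. That of 13 blastocyst markers such as Cdx2 and Krt18 was 166 to 479, 4202 to 5160 and 4169 to 7974 CPM. The 10 cumulus markers reached at most 169 CPM, with Ptgs2 and Fshr at 0 in all blastocysts and Amh at 0 in all embryos. Of the intact blastocysts, 7 (4 contralateral and 3 equatorial) had fewer than 10000 detected genes. They differed from the others in the medians of mitochondrial transcripts, with overlapping ranges, as described with the results they touch.

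The balance between the 2 genomes differed by stage. The 13 mitochondrial genes took 1.51 ± 0.33% of the counts (SD, n = 55) in 2-cell embryos and 1.80 ± 0.48% (n = 31) in intact blastocysts. The 85 nuclear genes took 0.612 ± 0.076% and 2.66 ± 0.35%, 4.35 times as much. The nuclear share lay between 0.420% and 0.811% in the 2-cell embryos and between 2.12% and 3.40% in the intact blastocysts, so the stages did not overlap. The log2 ratio of mitochondrial to nuclear counts was 1.28 ± 0.26 in 2-cell embryos and -0.60 ± 0.36 in intact blastocysts, again without overlap. In a permutation test with 100000 resamples, 2-sided and adjusted over 33 tests, the adjusted p was 0.000165 for the nuclear share and for the ratio, with a raw p of 1e-05, the smallest the resamples can give. For the mitochondrial share it was 0.0105. With plate 2 alone (13 2-cell embryos) the nuclear difference was 2.07 percentage points (adjusted p = 0.000165) and the mitochondrial difference was 0.313 (adjusted p = 0.0883).

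**Figure D1:**
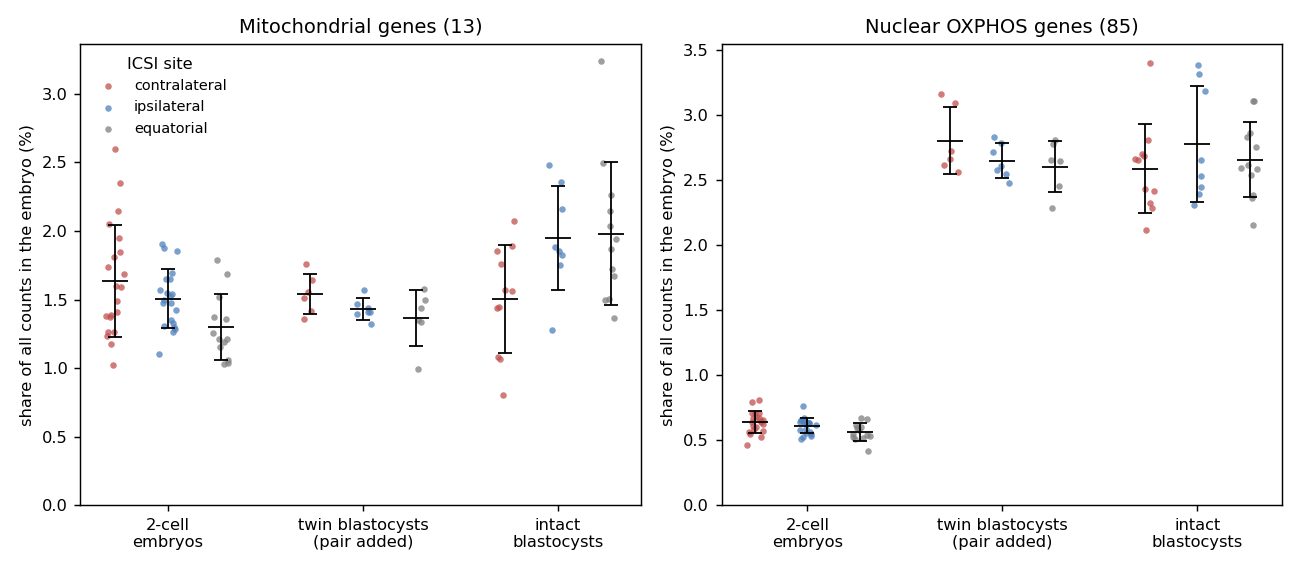
Share of all counts of each embryo (y axis, %) taken by the 13 mitochondrial genes (left) and the 85 nuclear OXPHOS genes (right) in 2-cell embryos, twin blastocysts with the pair added, and intact blastocysts, by ICSI site; each point is an embryo and bars are mean ± SD. The nuclear share of the 2-cell embryos, at most 0.811%, lies below that of every blastocyst, while the mitochondrial shares of the stages overlap.

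Nearly all nuclear subunit genes were higher at the blastocyst stage. By edgeR's quasi-likelihood test, 76 of the 80 nuclear genes tested rose from 2-cell embryos to intact blastocysts and 1 fell, where 32.7% of all 12645 genes tested were higher and 44.7% lower (77.4% called). The median log2 fold change of the 80 was 2.43, against -0.32 over all genes tested. The rise covered 36 of 37 genes of complex I, 4 of 4 of complex II, 8 of 8 of complex III, 11 of 14 of complex IV and 17 of 17 of complex V. Of the 81 nuclear genes with a mean of at least 1 CPM, 47 had every intact blastocyst above every 2-cell embryo (4.23% of 16128 genes) and 1 had every one below (7.79%). Summed TPM of the nuclear genes went from 5233 ± 698 to 23073 ± 3304 for complex I, from 139 ± 38 to 774 ± 168 for complex II, from 1345 ± 317 to 8544 ± 1125 for complex III, from 6498 ± 657 to 14591 ± 1657 for complex IV and from 2134 ± 239 to 9570 ± 855 for complex V.

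Subunits of complexes V and IV give examples. Atp5a1, the alpha subunit of the ATP synthase head, had 59.1, 127.5 and 216 CPM (lowest, median and highest) in 2-cell embryos and 367, 750.0 and 982 in intact blastocysts. Every intact blastocyst was above every 2-cell embryo, with a log2 fold change of 2.17 ± 0.12 (SE; adjusted p = 1.09e-29). Its partner Atp5b, the beta subunit that holds the catalytic site, had 255, 349 and 462 CPM against 558, 777 and 952, also without overlap, and a smaller change of 0.82 ± 0.08 (adjusted p = 5.28e-17). Cox4i1, a regulatory subunit of complex IV, had 13.1, 59.5 and 124.5 CPM against 409, 588 and 801, again without overlap, and rose by 3.11 ± 0.20 on the log2 scale (adjusted p = 1.33e-26). The genes with the smallest adjusted p beside these were Atp5l (2.44 ± 0.14), Cox6b1 (2.29 ± 0.13) and Atp5e (3.07 ± 0.18), all small subunits.

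Genes of electron entry and transfer rose as well. Ndufv1, which binds the NADH of complex I, had 0, 6.77 and 29.004 CPM in 2-cell embryos against 32.1, 169 and 329 in intact blastocysts, and these ranges did not overlap (log2 fold change 4.44 ± 0.51, adjusted p = 4.94e-13). Ndufs1, which carries electrons within complex I, rose too (2.74 ± 0.42). So did the 4 genes of succinate dehydrogenase: Sdha, which binds the flavin, by 1.15 ± 0.19, Sdhb, the iron-sulfur subunit, by 3.92 ± 0.40, and the membrane anchors Sdhc by 3.19 ± 0.40 and Sdhd by 2.74 ± 0.60. In complex III, the core proteins Uqcrc1 and Uqcrc2 rose by 4.07 ± 0.63 and 2.61 ± 0.44, and the Rieske protein Uqcrfs1 by 3.61 ± 0.49. In complex IV the changes of Cox5a (0.53 ± 0.13), Cox5b (1.39 ± 0.16) and Cox6c (1.21 ± 0.11) were smaller and passed the test too. The largest fitted change was that of Ndufs7, 5.91 ± 0.70, from 0 to 30.4 CPM in 2-cell embryos to 81.95 to 447 in intact blastocysts.

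The exceptions lay mostly in complex IV and concerned tissue isoforms. Cox6b2, known as the isoform of testis, was the gene that fell: it had 194, 341 and 523 CPM in 2-cell embryos and 0, 41.04 and 108.4 in intact blastocysts, without overlap (log2 fold change -2.94 ± 0.18, adjusted p = 1.66e-28). Per length, Cox6b2 made up 67.9 ± 5.0% of the TPM of the Cox6b pair in 2-cell embryos, 3.29 ± 1.49% in twins and 4.99 ± 3.31% in intact blastocysts. The ubiquitous Cox6b1 went the other way, with 467 ± 87 TPM in 2-cell embryos, 1651 ± 98 in twins and 2189 ± 435 in intact blastocysts. The 3 genes that did not pass the test were Ndufb6 (0.23 ± 0.20, adjusted p = 0.279), a subunit of complex I, and the muscle isoforms Cox6a2 (0.87 ± 0.59, adjusted p = 0.172) and Cox7a1 (-0.29 ± 0.48, adjusted p = 0.586). Ndufb6 was among the highest nuclear genes of the 2-cell embryo, at 824 ± 144 TPM, behind Cox8a at 2115 ± 217 and Cox6b2 at 993 ± 161.

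Most other isoform sets kept 1 leading gene. Cox4i1 held 99.3% of the Cox4i TPM in 2-cell embryos and at least as much in blastocysts, and Cox6a1 held 92.3 ± 5.7% of the Cox6a TPM in 2-cell embryos and 96.6 ± 3.5% in intact blastocysts. Cox8a (0.50 ± 0.09) held 99.8% of the Cox8 TPM in 2-cell embryos. Among the 3 genes for the c subunit of the ATP synthase ring, whose mature proteins are identical, the leading gene differed between stages. Atp5g1 took 47.5 ± 7.8% of their TPM in 2-cell embryos and 23.6 ± 6.4% in intact blastocysts, and Atp5g3 took 30.98 ± 7.3% and 47.3 ± 5.8%. In counts all 3 rose, Atp5g1 by 1.35 ± 0.16, Atp5g2 by 2.69 ± 0.19 and Atp5g3 by 2.94 ± 0.20 on the log2 scale. In the Cox7a set, Cox7a2 (0.89 ± 0.12) stayed first with 72.8 ± 7.6% of the TPM in 2-cell embryos and 69.5 ± 9.6% in intact blastocysts, and the supercomplex factor Cox7a2l (1.48 ± 0.20) went from 17.9 ± 6.9% to 27.4 ± 10.1%. Cox7b (2.10 ± 0.23), Uqcrh (1.22 ± 0.13) and Ndufa4 (0.32 ± 0.13) rose while Cox7b2 and Ndufa4l2 stayed below the filter. With depth and detected genes as covariates Ndufa4 was at -0.02 and not called.

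**Figure D2:**
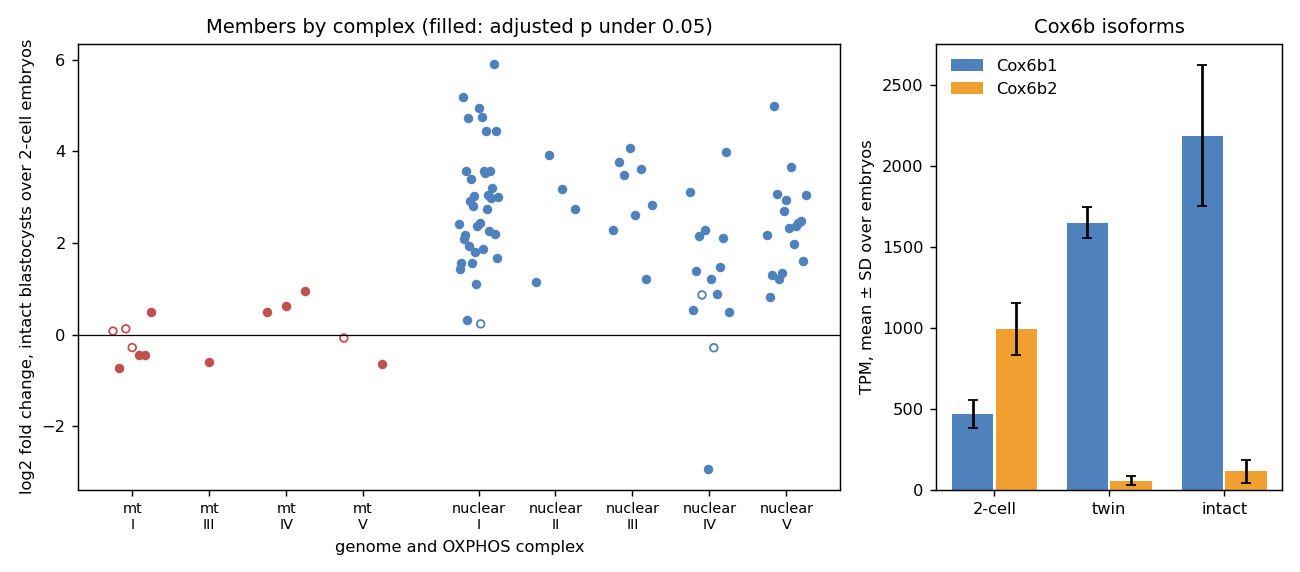
Left, log2 fold change of intact blastocysts over 2-cell embryos (y axis) for each mitochondrial (mt) and nuclear gene by complex; filled points passed the adjusted threshold and open points did not. Right, TPM of Cox6b1 and Cox6b2 (mean ± SD over embryos) in 2-cell embryos, twin and intact blastocysts; the nuclear points lie above 0 except Cox6b2 and Cox7a1, the mitochondrial points on both sides of 0, and Cox6b2 is the taller bar in the 2-cell embryos alone.

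The nuclear genes rose together, so the sequences before their starts were compared. RefSeq promoters of GRCm38.p6 were matched for 67 of the 85. In the 250 bases before the start, on either strand, the core motif of nuclear respiratory factor 1 (NRF1) stood in 4 of the 67 (5.97%) and in 0.781% of 27025 promoters. The ETS core CCGGAAG, which GABPA can bind, stood in 11 (16.4%) and in 7.05% of all. The letters TCAAGGTCA of estrogen-related receptors stood in 1 (1.49%) and in 0.366%, and the YY1 motif in 0 and in 0.218%. With the 50 bases after the start added, the YY1 motif stood in 4 (5.97%, Ndufa9, Ndufs4, Ndufs6 and Ndufs7) and in 0.699% of all, NRF1 in 5 (7.46%) and in 0.977%, ETS in 16 (23.9%) and in 9.12%, and the ERR letters in 2 (2.99%) and in 0.407%. The members' median GC content was 56% against 52% of all, and in the 250 bases their median number of CG dinucleotides was 14 against 6. The NRF1, ETS and YY1 letters contain CG, and the part of base composition in the motif shares was not tested. TATAAA was sought only in a short stretch near the end of the 250 bases, on the gene's strand. It stood there in 0 of the 67 and in 600 of the 27025 promoters. In the promoters shown, no match overlapped another. Shown as examples are the one gene with both an NRF1 and an ETS match before the start (Atp5k also has both when the bases after it are added), the one with an ERR match there and the NRF1 match of a complex I gene, 5′ to 3′ on the gene's strand up to the base before the start, with the matched letters in capitals (NRF1 the longer and ETS the shorter match in Cox6a1, ERR in Atp5g3, NRF1 in Ndufa11).

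Cox6a1, chr5:115348959-115349208, minus strand: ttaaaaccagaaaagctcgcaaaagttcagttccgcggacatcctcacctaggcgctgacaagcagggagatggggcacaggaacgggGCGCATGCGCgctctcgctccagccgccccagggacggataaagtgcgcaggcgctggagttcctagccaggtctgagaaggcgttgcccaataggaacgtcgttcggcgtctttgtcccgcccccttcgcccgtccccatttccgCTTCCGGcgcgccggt

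Atp5g3, chr2:73911327-73911576, minus strand: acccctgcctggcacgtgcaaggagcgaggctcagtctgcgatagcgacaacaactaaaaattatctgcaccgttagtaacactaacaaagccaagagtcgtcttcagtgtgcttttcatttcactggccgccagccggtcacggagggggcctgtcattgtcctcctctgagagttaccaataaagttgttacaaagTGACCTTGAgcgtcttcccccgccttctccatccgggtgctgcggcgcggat

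Ndufa11, chr17:56717512-56717761, plus strand: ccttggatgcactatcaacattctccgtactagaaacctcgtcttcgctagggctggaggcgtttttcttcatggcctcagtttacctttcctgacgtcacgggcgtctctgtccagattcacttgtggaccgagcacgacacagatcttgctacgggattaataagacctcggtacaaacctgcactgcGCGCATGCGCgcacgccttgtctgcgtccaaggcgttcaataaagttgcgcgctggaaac

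The 3 genes had like directions and unlike sizes. Cox6a1, a regulatory subunit of complex IV, had 60.9, 124.2 and 213 CPM in 2-cell embryos and 328, 579 and 1007 in intact blastocysts (log2 fold change 2.14 ± 0.15). Atp5g3 had 19.1, 68.8 and 151 CPM against 394, 543 and 745. Ndufa11, a membrane subunit of complex I, had 61.8, 116.1 and 186 CPM against 141, 362 and 582, which overlap (1.55 ± 0.16). Among the factors of these motifs, Esrra rose by 5.34 ± 0.80 on the log2 scale, while Nrf1 fell by 0.68, Gabpa by 1.22 and Gabpb1 by 1.65. The change of Yy1 with the stage is not given here. Of a list of 12 regulators of mitochondrial genes, 5 of 11 tested rose, among them Myc (4.50 ± 0.96) and Gabpb2 (1.00 ± 0.26), and 3 fell (32.7% and 44.7% of all genes).

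The mitochondrial genes did not move as a block. From 2-cell embryos to intact blastocysts 4 of the 13 rose and 5 fell, where 32.7% of all genes tested were higher and 44.7% lower. Both counts are near those shares. All 3 complex IV genes were among the 4: mt-Co3 by 0.94 ± 0.12, mt-Co2 by 0.63 ± 0.11 and mt-Co1 by 0.49 ± 0.12, together with mt-Nd6 (0.50 ± 0.17), the one gene of the light strand. Reads were counted without strand, so RNA of either strand over mt-Nd6 enters its count. The genes that fell were mt-Nd2 (-0.72 ± 0.18), mt-Atp8 (-0.65 ± 0.24), mt-Cytb (-0.59 ± 0.16), mt-Nd5 (-0.46 ± 0.17) and mt-Nd4l (-0.44 ± 0.18). The others were mt-Nd4 (-0.28 ± 0.16), mt-Nd3 (0.13 ± 0.15), mt-Atp6 (-0.08 ± 0.14) and mt-Nd1 (0.08 ± 0.15). With scaling to total counts alone 5 rose and 2 fell, and with all embryos thinned to the smallest total 4 rose and 2 fell. With depth and detected genes as covariates 6 rose and none fell, and mt-Nd2 (0.38), mt-Atp8 (0.47), mt-Nd5 (0.25) and mt-Cytb (0.05) were above 0. The shares of all genes that rose or fell under these alternatives are not given here. mt-Co3 had 944, 1383 and 2526 CPM in 2-cell embryos and 1801, 2824 and 4958 in intact blastocysts, and these ranges overlap, as did those of all 13 genes.

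Of the mitochondrial counts alone, mt-Co1 made up 14.3 ± 1.4% in 2-cell embryos, 20.2 ± 0.8% in twins and 20.1 ± 1.5% in intact blastocysts. mt-Co3 made up 9.53 ± 0.73%, 13.5 ± 0.7% and 16.97 ± 3.8%. mt-Cytb, the only mitochondrial subunit of complex III, went the other way, with 14.8 ± 1.7%, 10.8 ± 0.7% and 8.98 ± 1.77%. In the 7 intact blastocysts with fewer than 10000 detected genes, mt-Co3 had a median of 20.6% (15.3% to 32.4%) and mt-Nd5 of 2.39% (1.20% to 5.18%). In the other 24 the medians were 15.7% (13.2% to 22.1%) and 5.74% (2.72% to 7.29%), so the ranges overlap. Without those 7, 4 mitochondrial genes rose and 5 fell, and 77 nuclear genes rose, and the shares of all genes in that set are not given here.

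Reads of 100 bases cannot always place these transcripts. Of all windows of 100 bases in mt-Co3, 99.9% also occur in annotated nuclear transcripts, as do 99.5% of mt-Co2 and mt-Atp6, 98.5% of mt-Nd4l, 97.6% of mt-Nd3, 60.8% of mt-Nd4, 30.8% of mt-Co1 and 3.20% of mt-Nd2. For mt-Nd1, mt-Nd5, mt-Nd6, mt-Cytb and mt-Atp8 the share was 0%. Those nuclear transcripts are not counted here, and their part in the results was not tested. Some mitochondrial genes also overlap each other. On chromosome M, mt-Atp8 and mt-Atp6, the 2 mitochondrial subunits of complex V, share 43 bases at 7927 to 7969 on the same strand, shown because mt-Atp8 leads the comparison of ICSI sites:

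mt-Atp8 and mt-Atp6, chrM:7927-7969, plus strand, GRCm38 transcripts: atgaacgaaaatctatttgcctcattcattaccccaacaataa

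The stretch runs from the start codon of mt-Atp6 to the stop codon of mt-Atp8, and reads that reach into it overlap both genes. mt-Nd4l and mt-Nd4 share 7 bases, and mt-Nd5 and mt-Nd6 share 14 on opposite strands, which counting without strand cannot separate. Nor can it separate mt-Nd6 from any RNA of the opposite strand along the rest of that gene.

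Among the genes around the subunits, some rose and some fell with the stage. Of 50 OXPHOS assembly factors tested, 28 rose and 6 fell, where 32.7% of all genes rose and 44.7% fell. Those with the smallest adjusted p were Cox17, a copper chaperone of complex IV (5.14 ± 0.41), Uqcc2 (2.63 ± 0.25) and Cox14 (1.69 ± 0.22), and on the other side Ndufaf4 (-2.64 ± 0.21), Ndufaf2 (-2.10 ± 0.18) and Cox10 (-1.64 ± 0.15). Of 33 genes of mitochondrial transcription and RNA handling, 12 rose, a share near that of all genes, and 9 fell. Tfam, which packages mitochondrial DNA, rose by 4.39 ± 0.65, the RNA-stabilizing Slirp by 3.26 ± 0.50 and Mrpl12 by 1.94 ± 0.18, whereas Fastkd1 fell by 3.39, the transcription factor Tfb2m by 2.09 and the RNA helicase Supv3l1 by 1.96.

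The next question was whether the site of fertilization left a trace in these genes at the 2-cell stage. The mitochondrial share was 1.02, 1.59 and 2.60% (lowest, median and highest) after contralateral, 1.10, 1.5 and 1.90% after ipsilateral and 1.03, 1.21 and 1.79% after equatorial ICSI. The ranges overlap, with the higher medians after contralateral and ipsilateral ICSI. The means were 1.64 ± 0.41%, 1.51 ± 0.21% and 1.298 ± 0.24%, and the contralateral mean exceeded the equatorial one by 0.338 percentage points (permutation test, p = 0.0104, adjusted p = 0.0490). The nuclear share went the same way, with 0.641 ± 0.084%, 0.613 ± 0.060% and 0.563 ± 0.068%, and a difference of 0.0773 between contralateral and equatorial (adjusted p = 0.0450). The log2 ratio of mitochondrial to nuclear counts therefore differed by 0.13 (1.32 ± 0.30 against 1.19 ± 0.27, adjusted p = 0.370). Ipsilateral against equatorial gave adjusted p = 0.0569 for the mitochondrial and 0.0882 for the nuclear share, and contralateral against ipsilateral 0.370 and 0.372. The equatorial embryos also had the fewest detected genes per blastomere, 11461 ± 659 against 12018 ± 551 (contralateral) and 12080 ± 610 (ipsilateral). Their mean total was the lowest too, 2293030 counts against 2575530 and 3022460. The part of depth in the shares was not tested.

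The comparison was repeated within plates. With the 42 embryos of plate 1 alone, contralateral exceeded equatorial by 0.371 percentage points in mitochondrial (adjusted p = 0.0514) and 0.107 in nuclear share (adjusted p = 0.00671), and ipsilateral exceeded equatorial by 0.250 (adjusted p = 0.0429) and 0.0837 (adjusted p = 0.00825). Plate 2 held 3 contralateral, 8 ipsilateral and 2 equatorial embryos. There the nuclear difference between contralateral and equatorial was -0.0926 and the mitochondrial one 0.148, and with 3 against 2 embryos an exact permutation test cannot go below 0.1. Of 55 pairs, 48 had a mitochondrial fraction under 2% in both sisters. In those the difference was 0.174 (adjusted p = 0.188). This limit is a reading of the mitochondrial filter in the study's methods, leaves fewer pairs than the study kept, and is set on the measured quantity itself.

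Gene by gene, 8 of the 13 mitochondrial genes were higher after contralateral than equatorial ICSI and none lower, where 13.4% of 13141 genes were called and 7.62% called higher. Mitochondrial genes go together over the 55 2-cell embryos (median correlation 0.816), so these calls are not separate results, nor separate from the difference in share. mt-Atp8 had 72.3, 262 and 558 CPM after contralateral, 138, 253 and 353 after ipsilateral and 58.9, 132 and 212 after equatorial ICSI. The groups overlap, but the equatorial median lay below the lowest ipsilateral embryo. The log2 fold change over equatorial was 1.05 ± 0.17 for contralateral (adjusted p = 2.54e-05) and 0.90 ± 0.17 for ipsilateral ICSI (adjusted p = 0.000534). mt-Cytb had 1084, 2542 and 3977 CPM after contralateral, 1691, 2349 and 3408 after ipsilateral and 1164, 1573 and 2525 after equatorial ICSI, with 0.62 ± 0.12 and 0.50 ± 0.12. mt-Atp6 followed with 0.51 ± 0.12 and 0.37 ± 0.12. These 3 genes were the ones called between ipsilateral and equatorial, where 6.62% of all genes were called, 3.45% higher and 3.17% lower.

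The other 5 called between contralateral and equatorial were mt-Nd2 (0.48 ± 0.13), mt-Co3 (0.40 ± 0.11), mt-Nd4 (0.31 ± 0.10), mt-Nd1 (0.31 ± 0.11) and mt-Nd5 (0.29 ± 0.09). mt-Nd6 (0.25 ± 0.11), mt-Nd4l (0.22 ± 0.10), mt-Co1 (0.14 ± 0.09), mt-Co2 (0.03 ± 0.10) and mt-Nd3 (-0.05 ± 0.13) were not called. mt-Co2 had 696, 999 and 1610.5 CPM after contralateral and 728, 989 and 1465 after equatorial ICSI, so the contralateral range contained the equatorial one. Among the 48 pairs 3 mitochondrial genes were called, all higher (5.1% of all genes).

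**Figure D3:**
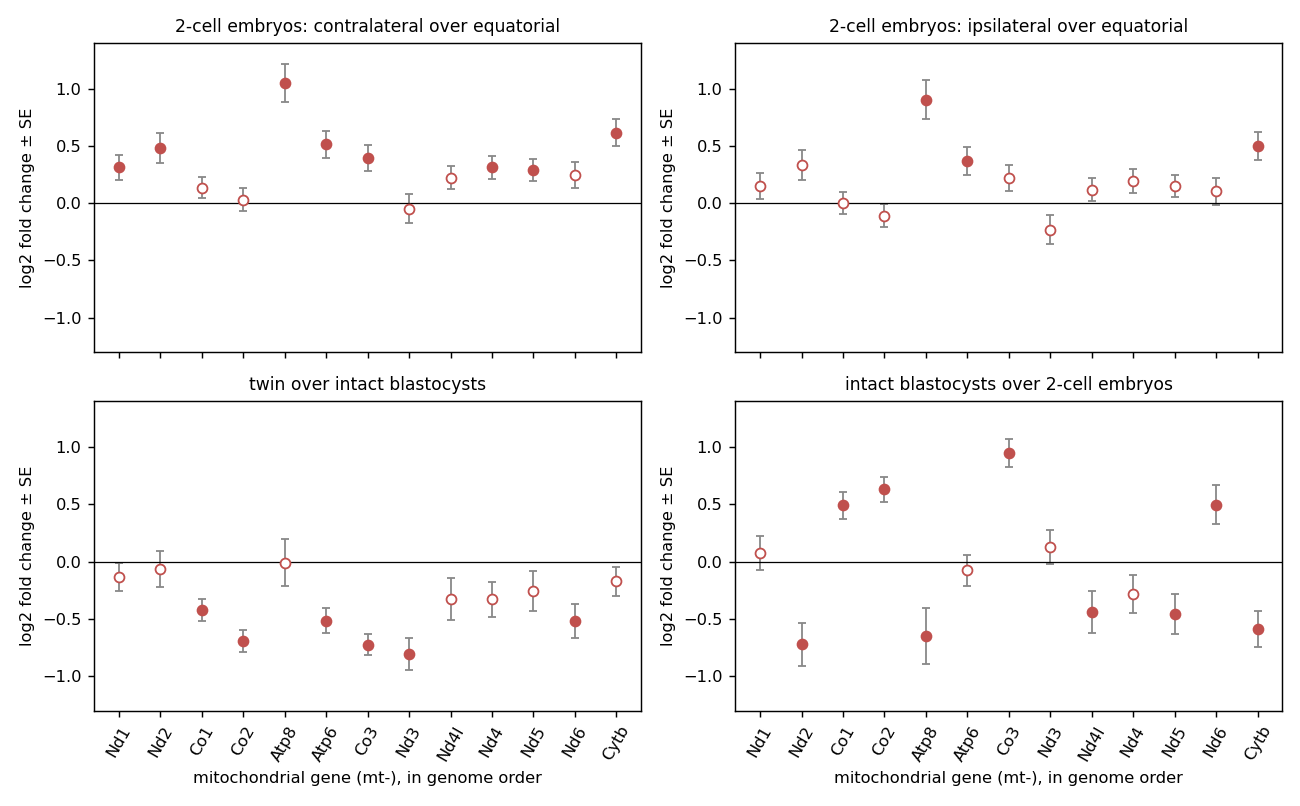
Log2 fold change ± SE (y axes) of the 13 mitochondrial genes in genome order (x axis) in 4 comparisons, filled where the adjusted p passed the threshold. mt-Atp8 is the highest point in both upper panels (1.05 and 0.90), and mt-Co3 is the highest in the lower right panel (0.94) and below 0 in the lower left (-0.72).

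Of the 80 nuclear genes, 5 were higher after contralateral than after equatorial ICSI and none lower, 6.25% against the 7.62% of all genes. Cox5a, a subunit of complex IV, had 182, 221 and 302 CPM after contralateral and 135, 180.0 and 232 after equatorial ICSI (0.42 ± 0.10, adjusted p = 0.00210). Cox5b, a zinc-binding subunit, had 72.9, 177 and 295 against 48.6, 135 and 198 CPM (0.55 ± 0.15), and Cox7b 26.3, 119.1 and 220.1 against 6.89, 71.7 and 103 CPM (0.90 ± 0.24). All these ranges overlap. Ndufa6 of complex I (0.62 ± 0.20) and the hinge protein Uqcrh of complex III (0.35 ± 0.12) made up the 5. In direction, 67 of 80 nuclear genes were above 0 with a median of 0.22, against 0.02 over all genes tested. On plate 1 alone 14 were called, all higher, where 9.65% of 12864 genes were called higher, and in the 48 pairs 1, where 5.1% of 13022 were. Ipsilateral against equatorial called 0 of 80 in edgeR, with 6 at an unadjusted p under 0.05 (19.7% of all genes) and 1 called by DESeq2.

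Contralateral against ipsilateral called 0 of the 13 and 0 of the 80, as of all genes (0% called). At an unadjusted p under 0.05 there were 0 mitochondrial and 3 nuclear genes in edgeR (4.28% of all genes), and DESeq2 called none of the members. All 13 mitochondrial genes lay slightly above 0, between 0.10 and 0.18 on the log2 scale, and these genes go together over embryos (median correlation 0.816).

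Among the surrounding genes, Sdhaf4, an assembly factor of succinate dehydrogenase, was higher after contralateral (1.08 ± 0.19) and ipsilateral (0.62 ± 0.18) than after equatorial ICSI. Cytochrome c itself, Cycs, was higher after contralateral ICSI (0.47 ± 0.12), as was Ndufaf4 (0.45 ± 0.11), and 4 of 46 assembly factors were higher in all, none lower, a share near the 7.62% of all genes called higher. In the transcription list, also near the shares of all genes (7.62% higher and 5.74% lower), 2 of 32 were higher (Mterf3 0.95 ± 0.28, Rexo2 0.32 ± 0.10) and 2 lower (the helicase Twnk -1.90 ± 0.49, Tbrg4 -0.96 ± 0.30). Between ipsilateral and equatorial ICSI, Mterf3 (1.00 ± 0.28) and Tbrg4 (-1.0 ± 0.31) were called again. Of 9 regulators tested, Nrf1 was called between contralateral and equatorial (-0.49 ± 0.17), and 0 between ipsilateral and equatorial.

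Sister blastomeres inherit 1 zygote's mitochondria between them, so their shares were set side by side. Over the 55 pairs the absolute log2 ratio of the sisters' mitochondrial shares had a median of 0.22 (0.01 to 1.19), a 1.16-fold difference that reached 2.28-fold in 1 pair. For the nuclear share the median was 0.15 and the largest 0.48, or 1.39-fold. The mitochondrial share differed by more than 1.5-fold in 8 of 55 pairs and the nuclear share in 0. In 34 of 55 pairs the mitochondrial difference was the larger, and in 38 the same sister was higher in both shares. The deeper sister had the higher mitochondrial share in 26 of 55. In the pair with the largest difference (equatorial, 1.19) the higher share was that of the shallowest library used, 360474 counts against 895007 in its sister. In the next pair (contralateral, 0.96) it was also that of the shallower sister, 439326 against 1150840 counts. The part of depth was not tested.

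By site, the mean absolute log2 ratio of mitochondrial shares was 0.26 ± 0.24 after contralateral, 0.24 ± 0.18 after ipsilateral and 0.42 ± 0.34 after equatorial ICSI. The permutation tests, adjusted over 6, gave 0.379 for contralateral and 0.289 for ipsilateral against equatorial (raw p = 0.126 and 0.0481). For nuclear shares the means were 0.18 ± 0.12, 0.15 ± 0.11 and 0.19 ± 0.15 (smallest adjusted p = 0.759). The intraclass correlation, the part of the variance that lies between embryos rather than between sisters, was 0.449 for the log2 mitochondrial and 0.502 for the log2 nuclear share. Within sites the mitochondrial value was 0.620 (contralateral, 21 pairs), 0.345 (ipsilateral, 21) and -0.032 (equatorial, 13), given as a description. Library totals of sisters also differed most after equatorial ICSI. Their mean absolute log2 ratio was 0.49 ± 0.36 there, 0.25 ± 0.30 after contralateral and 0.24 ± 0.23 after ipsilateral ICSI. The part of depth was not tested.

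Twin blastocysts allowed the same comparison after separate culture. The mitochondrial log2 ratio of twins lay between 0.00 and 0.24 in the 6 contralateral pairs, 0.06 and 0.31 in the 7 ipsilateral pairs and 0.19 and 0.39 in the 6 equatorial pairs. The equatorial twins differed more from each other than the contralateral ones, 0.29 ± 0.08 against 0.10 ± 0.09 (exact permutation test, p = 0.00433, adjusted p = 0.0260), with a small overlap of the 2 groups. Ipsilateral twins lay between, at 0.22 ± 0.11, and differed from neither beyond the test (adjusted p = 0.183 and 0.245). Nuclear shares of twins differed by 0.06 ± 0.06, 0.13 ± 0.08 and 0.05 ± 0.05. Library totals of twins differed by 0.24 ± 0.23 after contralateral, 0.14 ± 0.08 after ipsilateral and 0.44 ± 0.45 after equatorial ICSI. The deeper twin had the higher mitochondrial share in 6 of 19 pairs, and the part of depth was not tested. Compared with sisters at the 2-cell stage, twins differed less in nuclear share, by 0.09 in the mean on this scale (adjusted p = 0.00816). For the mitochondrial share the mean of the twins was lower by 0.08 and the test was not passed (adjusted p = 0.186), while the median was 0.24 in twins and 0.22 in sisters. These 2 tests were not limited to plate 2, which held all twins and 13 of the 55 sister pairs. They also set single blastomeres against whole blastocysts, and the part of plate, depth or cell number was not tested.

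**Figure D4:**
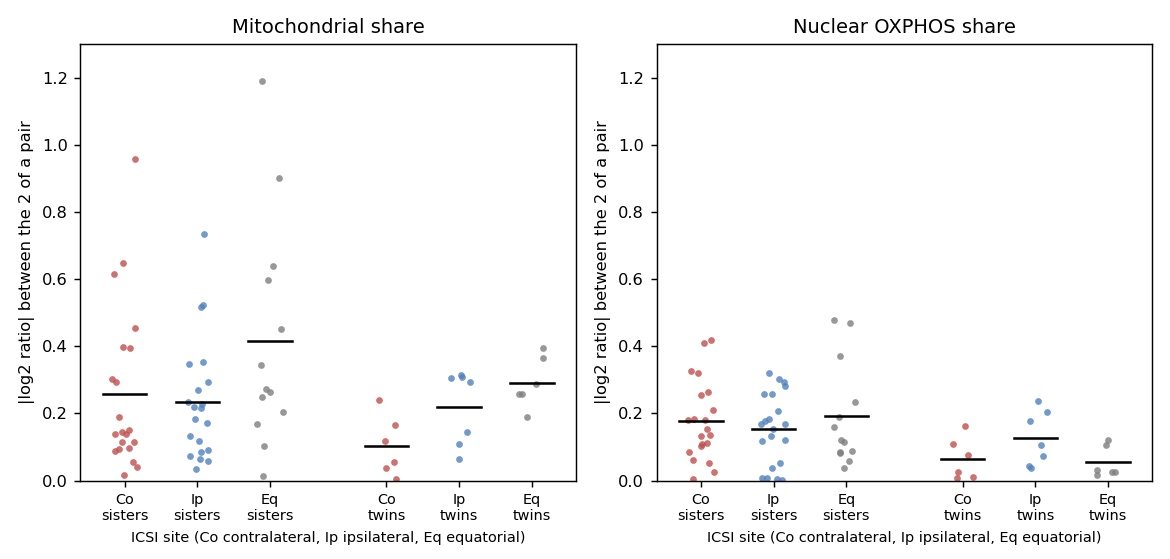
Absolute log2 ratio (y axes) of the mitochondrial (left) and nuclear OXPHOS share (right) between sister blastomeres of 2-cell embryos and between twin blastocysts, by ICSI site; each point is a pair and lines are means. The equatorial twins (0.19 to 0.39) lie mostly above the contralateral twins (0.00 to 0.24) on the left, and all nuclear values lie under 0.48.

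The gene-wise intraclass correlation describes how alike sisters were in each transcript. Counting noise lowers it for genes with few counts, and differences between sites and plates count as differences between embryos. In 2-cell embryos the mitochondrial genes had means of 229 to 2241 CPM, and the highest nuclear gene, Cox8a, had 398. The part of level was not tested. Among genes of at least 10 CPM its median in 2-cell pairs was 0.443 for the 13 mitochondrial, 0.228 for 70 nuclear and 0.208 for 9256 genes in all. The largest values of members were those of Ndufb11 (0.703), Cox5b (0.598) and mt-Co3 (0.569), and the smallest those of Ndufs4 (-0.150), Ndufv3 (-0.129) and Cox6b1 (-0.0892). In twins it was 0.189 for the mitochondrial, 0.337 for 79 nuclear and 0.108 for 9157 genes in all, and these differences were not tested. There Ndufa1 (0.802), Cox7b (0.733) and Ndufa13 (0.702) led, and mt-Nd3 (-0.211), Ndufa9 (-0.103) and Ndufb1-ps (-0.0960) came last. The 3 members on the X chromosome are Ndufb11, Ndufa1 and Cox7b. Their values were 0.380 to 0.703 in 2-cell pairs and 0.660 to 0.802 in twins, against medians of 0.223 over 67 and 0.328 over 76 autosomal members, a split made after the values were seen.

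Across embryos the mitochondrial genes went up and down together and the nuclear ones less so. The median correlation of log2 CPM between 2 mitochondrial genes was 0.816 over the 55 2-cell embryos, 0.711 over the 19 twin pairs and 0.693 over the 31 intact blastocysts. Between 2 nuclear genes it was 0.135, 0.507 and 0.219, and between a mitochondrial and a nuclear gene 0.100, 0.397 and 0.193. These are descriptions over embryos that share depth and plate, and sampling noise lowers those of genes with few counts.

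Bisection was examined by comparing twin pairs with intact blastocysts. The mitochondrial share was 0.994, 1.44 and 1.76% (lowest, median and highest) in the 19 twin pairs and 0.804, 1.83 and 3.24% in the 31 intact blastocysts, so that the twins lay within the wider intact range. The means were 1.44 ± 0.16% and 1.80 ± 0.48% (permutation test, adjusted p = 0.0139). The nuclear share was 2.68 ± 0.21% and 2.66 ± 0.35% (adjusted p = 0.851), and the log2 ratio of mitochondrial to nuclear counts was -0.90 ± 0.12 and -0.60 ± 0.36 (adjusted p = 0.0105). Without the 7 intact blastocysts under 10000 detected genes, the mitochondrial difference was -0.407 percentage points (adjusted p = 0.00055).

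The difference was seen at 2 of the sites. Twin minus intact mitochondrial share was -0.517 after ipsilateral (1.43 ± 0.08% against 1.95 ± 0.38%, exact permutation test, adjusted p = 0.0277) and -0.614 after equatorial ICSI (1.36 ± 0.20% against 1.98 ± 0.52%, adjusted p = 0.0490). After contralateral ICSI it was 0.037 (1.54 ± 0.15% against 1.504 ± 0.39%, adjusted p = 0.857). The difference between sites was not tested for the share, and gene by gene it was tested as an interaction. It called 0 of the 13 mitochondrial and 0 of the 80 nuclear genes in edgeR, and 0% of 10689 genes in all, for contralateral and for ipsilateral against equatorial. At an unadjusted p under 0.05, 6 of the 13 passed for contralateral against equatorial, mt-Atp6 (0.68 ± 0.25), mt-Cytb (0.78 ± 0.29), mt-Nd1 (0.75 ± 0.29), mt-Nd3 (0.70 ± 0.32), mt-Nd2 (0.80 ± 0.38) and mt-Nd6 (0.70 ± 0.34), and 0 for ipsilateral against equatorial. The share of all genes at that threshold was not computed for the interaction. Mitochondrial genes also go together over embryos, so the 6 are not separate results.

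Of the 13 mitochondrial genes 6 were lower in twins and none higher, where 42.4% of 9379 genes were called, 19.9% higher and 22.5% lower. These genes go together over embryos (median correlation 0.711 in twins and 0.693 in intact blastocysts), so the calls are not separate results. mt-Co3 had 1395, 1939 and 2574 CPM in twins and 1801, 2824 and 4958 in intact blastocysts, an overlapping pair of ranges with the intact ones extending upwards (-0.72 ± 0.09, adjusted p = 2.12e-09). mt-Nd3 (-0.81 ± 0.14), mt-Co2 (-0.69 ± 0.10), mt-Nd6 (-0.52 ± 0.15), mt-Atp6 (-0.52 ± 0.11) and mt-Co1 (-0.42 ± 0.09) were the others. mt-Nd4 (-0.33 ± 0.15), mt-Nd4l (-0.33 ± 0.18), mt-Nd5 (-0.26 ± 0.17), mt-Cytb (-0.17 ± 0.13), mt-Nd1 (-0.13 ± 0.12), mt-Nd2 (-0.06 ± 0.16) and mt-Atp8 (-0.01 ± 0.21) were not called. Of the 6 called genes, mt-Co3, mt-Co2, mt-Atp6 and mt-Nd3 have at least 97.6% of their windows in nuclear transcripts, as has mt-Nd4l, which was not called. The 4 also took more of the mitochondrial counts in the 7 intact blastocysts with few detected genes, mt-Co2 with a median of 13.3% against 9.94% and mt-Nd3 with 2.73% against 1.64%. Without these 7, 9 of 13 were lower and mt-Co3 differed by -0.65, and the share of all genes lower in that set is not given here.

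Among the nuclear genes 43 of 80 passed the test, 15 higher and 28 lower in twins. The shares called higher and lower were 19.9% and 22.5% over all genes (49.7% at an unadjusted p under 0.05). The split depended on scaling, with 20 higher and 17 lower for total counts alone and 19 and 22 for RLE factors. How many of all genes were called under these scalings is not given here. With depth and detected genes as covariates, which move with the groups, 3 were higher and 3 lower. Complex IV held 10 of the lower genes and 1 of the higher ones among 14 tested, complex I 10 and 9 of 37, complex III 3 and 2 of 8, complex V 5 and 1 of 17, and complex II 0 and 2 of 4.

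Sdhd, the membrane anchor of succinate dehydrogenase, had 155, 219 and 273 CPM in twins and 15.8, 74.96 and 184 in intact blastocysts. Only the upper end of the intact range reached the twins (1.38 ± 0.16, adjusted p = 1.8e-10). Sdhb was higher too (0.38 ± 0.13), but was at -0.10 and not called with depth and detected genes as covariates, while Sdha (0.00 ± 0.12) and Sdhc (-0.24 ± 0.15) were not called. Uqcrc2, a core protein of complex III, had 163, 205 and 298 CPM against 7.82, 99.6 and 208 (0.99 ± 0.16), and its partner Uqcrc1 was higher by 0.64 ± 0.10. Cox7a1 had 27.3, 37.2 and 58.6 CPM in twins and 0, 9.62 and 25.6 in intact blastocysts. It was the 1 member with every twin pair above every intact blastocyst (0.201% of 13420 genes), at 1.77 ± 0.28 (adjusted p = 4.52e-07), and at -0.01 with those covariates. Ndufa8 (0.72 ± 0.11) and Ndufv1 (0.35 ± 0.13) of complex I were also higher.

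The lower genes with the smallest adjusted p were small accessory subunits: Cox7b (-0.59 ± 0.09), Ndufa1 (-0.68 ± 0.11), Atp5md (-0.64 ± 0.11), Cox6b1 (-0.52 ± 0.09) and Ndufa13 (-0.47 ± 0.08). Ndufa1 had 174, 242 and 321 CPM in twins and 145, 357 and 569.5 in intact blastocysts, whose range covers that of the twins. Cox6c (-0.52 ± 0.11), Cox8a (-0.46 ± 0.09) and Cox4i1 (-0.23 ± 0.08) of complex IV were lower as well, as were the isoforms Cox6a2 (-2.10 ± 0.53) and Cox6b2 (-1.12 ± 0.27). With the same covariates Cox6c was at 0.09 and Cox4i1 at 0.08, and neither was called. Atp5a1 (-0.07 ± 0.08), Atp5b (0.05 ± 0.07), Ndufs1 (-0.05 ± 0.14), Cox5a (0.06 ± 0.11), Cox5b (-0.20 ± 0.10) and Uqcrfs1 (0.24 ± 0.10) were not called.

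Transcript length moved with this comparison. The 15 higher genes had a median exonic length of 2147 bases, the 28 lower ones 1120 and the 37 others 1801, and over the 80 genes length and log2 fold change had a Spearman correlation of 0.265, a description across genes, which are not independent. The part of length was not tested. Twins also differed from intact blastocysts in depth, being the sum of 2 libraries. After thinning every embryo to the smallest total, 6 mitochondrial genes were lower, and 13 nuclear genes were higher and 27 lower. The shares of all genes after thinning are not given here. With depth and detected genes as covariates 11 mitochondrial genes were lower, and 3 nuclear genes were higher and 3 lower, where 4.61% and 7.08% of all genes were. The oocyte and 2-cell markers were higher in twins, as given above, and their part was not tested.

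**Figure D5:**
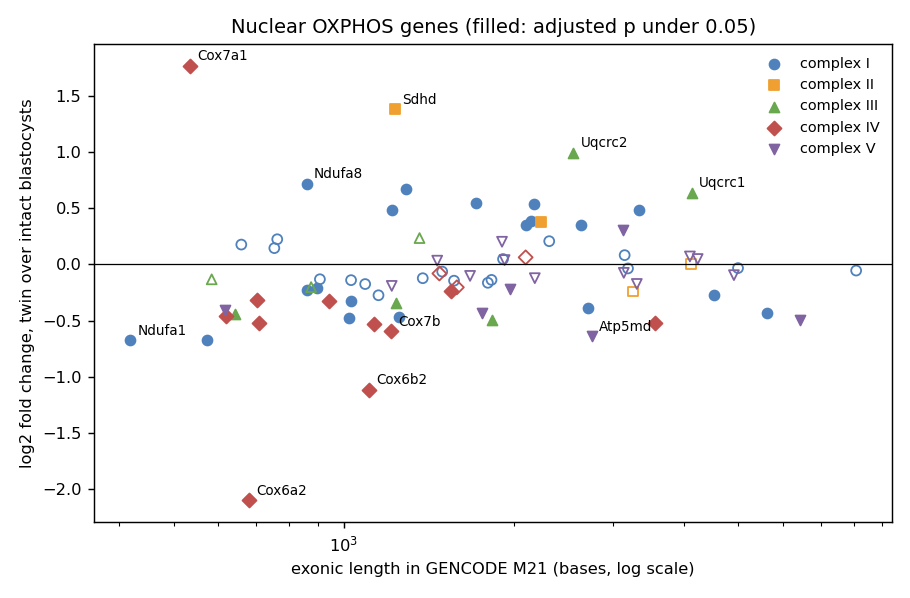
Log2 fold change of twin over intact blastocysts (y axis) against exonic length in bases (x axis, log scale) for the 80 nuclear genes tested, by complex, filled where the adjusted p passed the threshold. Cox7a1 (1.77), Sdhd (1.38) and Uqcrc2 (0.99) lie highest, and most complex IV points lie below 0.

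Assembly factors went mainly one way, with 21 of 50 higher in twins and 1 lower, against 19.9% and 22.5% of all genes. Cox18, which inserts the second subunit of complex IV, was higher by 1.62 ± 0.19, Tmem70, an ATP synthase factor, by 0.92 ± 0.15 and Coa3 by 0.81 ± 0.15, and Cycs was lower (-0.34 ± 0.13). Of 32 genes of mitochondrial transcription 8 were higher, near the share of all genes, among them the elongation factor Tefm (1.32 ± 0.28), Mrpl12 (0.49 ± 0.11) and Elac2 (0.72 ± 0.18), and 2 lower, Fastkd3 (-1.0 ± 0.19) and Top1mt (-1.48 ± 0.36). Of 11 regulators 3 were higher, Ppargc1b (1.22 ± 0.22), Nrf1 (0.59 ± 0.19) and Myc (0.92 ± 0.29), and 2 lower, Yy1 (-0.65 ± 0.11) and Esrra (-0.52 ± 0.20).

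The effect of the ICSI site was also sought at the blastocyst stage. In twins, no gene of the table was called between any pair of sites in edgeR (0%). At an unadjusted p under 0.05, contralateral against equatorial had 6 mitochondrial and 19 nuclear members (6.65% of all genes), contralateral against ipsilateral 4 and 5 (6.83%) and ipsilateral against equatorial 0 and 0 (3.87%). After contralateral ICSI all 13 mitochondrial and 77 of 80 nuclear genes lay above equatorial, with medians of 0.23 and 0.16. Members go together over the 19 twin pairs, with median correlations of 0.711 (mitochondrial) and 0.507 (nuclear), so these are not separate results. The mitochondrial share was 1.54 ± 0.15%, 1.43 ± 0.08% and 1.36 ± 0.20% in the contralateral, ipsilateral and equatorial twins (exact permutation tests, smallest adjusted p = 0.257).

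Intact blastocysts had the sites in another order. The mitochondrial share was 0.804, 1.56 and 2.07% (lowest, median and highest) after contralateral, 1.28, 1.87 and 2.48% after ipsilateral and 1.36, 1.91 and 3.24% after equatorial ICSI, with wide overlap. Contralateral was below equatorial by 0.475 percentage points (p = 0.0188, adjusted p = 0.0691) and below ipsilateral by 0.444 (exact permutation test, p = 0.0252, adjusted p = 0.0757). The log2 ratio of mitochondrial to nuclear counts differed by -0.36 between contralateral and equatorial (adjusted p = 0.0712), and the nuclear shares were 2.59 ± 0.34%, 2.78 ± 0.44% and 2.66 ± 0.29%. No gene of the table was called by edgeR (0%). At an unadjusted p under 0.05, contralateral against equatorial had 4 mitochondrial and 3 nuclear members (6.86% of all genes), contralateral against ipsilateral 2 and 6 (5.67%) and ipsilateral against equatorial 0 and 2 (3.7%). All 13 mitochondrial genes lay below equatorial after contralateral ICSI, between -0.65 and -0.19, and these genes go together over embryos (median correlation 0.693). Without the 7 blastocysts with few detected genes, the difference in share was -0.358 (adjusted p = 0.115).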

How the data were processed

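Both sisters of 2-cell embryos, both twins and intact blastocysts were sequenced as SMART-Seq libraries without molecular identifiers. The paper states paired-end reads for part of the blastomeres, and single-end reads of 100 bases for the others and for the blastocysts. The part of read format in the results was not tested. The authors trimmed reads (Trimmomatic), kept the first 100 bases of the paired-end first reads, aligned them without strand with STAR 2.7.10b to GRCm38 with GENCODE M23, and deposited whole-number counts per gene and library, without normalization. Precision is limited by the total counts given in the report.

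Embryos were kept where both blastomeres had at least 9500 detected genes. Sisters' or twins' counts were added. Symbols, complexes and pathway lists, and the members themselves, were chosen with earlier results of these data known. CPM, and TPM with GENCODE M21 exonic lengths, were computed here. edgeR 4.0.16 (quasi-likelihood test, TMM, filterByExpr, Benjamini-Hochberg adjustment over all genes, threshold 0.05) was run under R 4.3.3 on the counts, with plate as a covariate where 2-cell embryos entered. It was tested on simulated data. Shares were compared with 2-sided permutation tests over embryos, exact where a group had fewer than 10 and with 100000 resamples otherwise. The p-values were adjusted over 33 tests, or over 6 for pair differences between sites. Tests of sisters against twins were adjusted among themselves. Share values within a site, a plate or another set of embryos were adjusted in place of the main value. The number of such settings was not adjusted for. Correlations used log2(CPM + 1).

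Named were all mitochondrial genes, up to 5 nuclear genes per direction with the smallest adjusted p, core subunits, isoform sets, up to 3 genes per list and direction, and the 3 largest and smallest intraclass correlations, except 1 core subunit that is not reported here. Ndufs7, the X-linked split, the 6 genes of the interaction and the promoter examples were chosen after their values were seen. DESeq2 1.42.0, other scalings, filters, plates and sets of pairs were tried. The sources used here do not tie embryos to injection days, so p-values measure the spread between these embryos. The authors' files of barcodes and of reads collapsed by position were not used.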

Additional observations from a re-analysis of the deposited data

Results flagged for a closer look

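In groups of 6 to 8 blastocysts, 70 values were examined for an embryo far from its group (Dixon's test), and 10 stood apart. Chance flags about 1 in 20 groups, and mitochondrial genes of 1 embryo share their depth and go together, so these are not 10 separate events. Among the 8 ipsilateral intact blastocysts the lowest value stood apart for mt-Nd2 (289 CPM, the next at 735), mt-Nd4 (662, the next at 1469), mt-Nd5 (347, the next at 937) and mt-Nd6 (274, the next at 535). Among the 6 contralateral twin pairs the highest value stood apart for mt-Co2 (1895 CPM, the next at 1353) and mt-Nd3 (322, the next at 233). Among the 6 equatorial twin pairs the lowest stood apart for mt-Nd1 (1009.9 CPM, the next at 1450.5), mt-Nd2 (474, the next at 740.3) and mt-Nd6 (253, the next at 405). Among the 7 ipsilateral twin pairs it did for mt-Nd1 (1251 CPM, the next at 1436).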

How the results depend on the processing

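Over all alternatives, 684 values of single genes kept their direction and their side of the threshold, 48 lost their call and 10 changed direction. Of the main comparisons 219 values were unchanged. Counts of called genes were taken as unchanged within 1.5 times the main count, whatever their direction, and 11 counts moved further. Among the other main values 12 changed direction, 7 lost their call and 3 gained one. Causes were not tested.

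2-cell embryos. With 48 pairs, a limit on the mitochondrial share itself, contralateral against equatorial called 3 mitochondrial and 1 nuclear genes, the shares differed by 0.174 and 0.0553, and contralateral minus ipsilateral was -0.0319 for the mitochondrial share and -0.0564 for the log2 ratio. Plate 1 alone gave 0.371 (mitochondrial share) and 14 nuclear genes for contralateral against equatorial, and 0.250, 0.0837 (nuclear share) and 1 nuclear gene for ipsilateral against equatorial. Plate 2 alone gave 0.148 and -0.0926 for contralateral against equatorial, and nuclear shares of -0.0789 for ipsilateral against equatorial and -0.0136 for contralateral against ipsilateral. With all 62 pairs ipsilateral exceeded equatorial by 0.232 (adjusted p = 0.0334), and sister differences were -0.0831 (mitochondrial, contralateral minus ipsilateral) and 0.0104 (nuclear, contralateral minus equatorial). The mean of the sisters gave 0.351 (adjusted p = 0.0589) for contralateral against equatorial. DESeq2 called 8 and 1 nuclear genes for contralateral and ipsilateral against equatorial, all higher. Without the low-count filter 9 (8 higher and 1 lower) and 2 (all higher) were called, and 1, lower, between contralateral and ipsilateral. For DESeq2 and for no filter the shares of all genes are not given here.

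Stage. Plate 2 alone gave a mitochondrial difference of 0.313. With depth covariates Ndufa4 was at -0.0194, mt-Atp8 at 0.47, mt-Cytb at 0.0490, mt-Nd2 at 0.38 and mt-Nd5 at 0.25.

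Twin against intact. Depth covariates, which move with the groups, called 11 mitochondrial and 6 nuclear genes and turned Cox4i1 (0.0755), Cox6c (0.0912), Cox7a1 (-0.0140), Sdhb (-0.10) and Uqcrh (0.25). Contralateral embryos alone gave 0.0366 (mitochondrial share) and -0.0406 (log2 ratio), ipsilateral -0.128 and equatorial -0.0533 (nuclear share). Intact blastocysts with at least 10000 detected genes gave a nuclear share difference of -0.0145, and 0.0846 between contralateral and equatorial.

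No paired analysis was possible because the groups share no embryos. Depth limits genes with few counts, such as Ndufv1 in 2-cell embryos, and library totals cover counting error only, since reads without molecular identifiers are not independent molecules.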

Other observations

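The 7 blastomeres with fewer than 9500 detected genes entered no comparison other than those over all 62 pairs. Their mitochondrial share was 1.25% and 1.28% in the 2 contralateral, 1.08% and 0.871% in the 2 equatorial and 0.285%, 1.26% and 0.954% in the 3 ipsilateral blastomeres. Their nuclear OXPHOS share was 0.227% and 0.546%, 0.313% and 0.407%, and 0.427%, 0.305% and 0.406%. The ipsilateral blastomere with 3020 detected genes was the only one of the 7 with more nuclear than mitochondrial counts, with a log2 ratio of mitochondrial to nuclear counts of -0.59, against 1.10 to 2.46 in the others.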
